A study of Mus musculus with 63 samples.

Results

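The genes described here are 8 genes that mark melanocytes, the pigment cells of skin: Dct, Tyrp1, Tyr, Mlana, Mitf, Ednrb, Kit and Sox10. They were chosen by symbol in the array's annotation and are read as a sign of other cells in primary cultures of mouse keratinocytes. They are 8 of 14541 genes named on the array and are measured by 14 of its 28049 probes. Dct and Ednrb have a pair of probes each, Tyrp1 and Mitf have 3 each, and Tyr, Mlana, Kit and Sox10 have 1 each. Where a gene has several, the probes are lettered by their identifiers: Dct A is 1765277_1 and B 1793485_1, Tyrp1 A is 1776407_1, B 1797412_1 and C 1797611_1, Mitf A is 1773435_1, B 1780049_1 and C 1794660_1, and Ednrb A is 1777339_1 and B 1797260_1.

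Melanocytes arise from the neural crest. In newborn mouse skin they lie in the hair follicles and the epidermis, so a culture of epidermal cells can carry some of them along. Sox10 and Mitf are the transcription factors of the lineage, and Mitf switches on the pigment genes Tyr, Tyrp1 and Dct. Kit and Ednrb are surface receptors for stem cell factor and endothelins, signals that keratinocytes send to melanocytes, and Mlana is a protein of the melanosome, the organelle in which pigment is made.

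The study compared epidermal keratinocytes from newborn mice of the CD-1 stock, an albino outbred stock, that were wild type (WT) or lacked the epidermal growth factor receptor EGFR in the whole animal (KO). Cells were infected with a retrovirus carrying the v-rasHa oncogene ("ras") or were mock controls ("mock"). The labels give 4 days of culture for the infected and the inhibitor-treated cells, and no time for the mock controls without inhibitor. Some cultures received 1 µM of an EGFR tyrosine kinase inhibitor, AG1478, erlotinib or PD153035, for 2 h. Every array set the sample against a common reference, a pool of RNA in equal parts from 11 mouse cell lines. The 13 groups were WT mock (4 samples) and WT mock with each inhibitor (5 each), WT ras and WT ras with each inhibitor (5 each), KO mock (3), KO ras (5), KO ras with AG1478 (6), KO ras with erlotinib (4) and KO ras with PD153035 (5). The virus came from Psi-2 producer cells, which the labels list for every ras group. The labels name the cells as keratinocytes and mention no sort. A value is the log2 ratio of sample over reference, so 0 is the level of the reference pool, and no probe's level can be set against another's.

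The 62 samples come from 63 arrays, each with values for 24860 to 28047 probes. The SD of the values over an array ranged from 0.75 to 1.75 between arrays, and the median from -0.07 to 0.07. The direction of the ratio is not stated and was taken as likely, since the median of 25 probes for keratinocyte markers lay above the array's median on all 63 arrays. In KO ras with AG1478, repeats 3 and 4 correlated with the other arrays against what their dye label calls for, and their sign was taken from the data. Neither of the 2 Egfr probes passed the threshold in any comparison of KO with WT (differences from -1.15 to 0.63, adjusted p from 0.291 to 0.975, limma). Whether these probes lie in the deleted part is not given, so the genotype rests on the labels. The labels do not say whether samples of a group came from separate cultures or animals, so p-values measure the spread between samples, which may be technical.

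Upstream sequences are shown for the genes encoding the pigment enzymes, since a short E-box type motif, the M-box TCATGTG, is the textbook site of Mitf in their promoters. RefSeq's sequence for 250 bases upstream of the start site (build GRCm38.p6) was found for 6 of the 8 genes, in 9 windows. The motif, searched on both strands as TCATGTG, occurred in 3 of the 6 genes, against 3.25% of 32851 windows of the same length. The windows of Dct (chr14:118052247-118052496, minus strand), Tyrp1 (chr4:80833963-80834212, plus strand) and Tyr (chr7:87493513-87493762, minus strand) follow, 5′ to 3′, with the motif or its reverse complement in capitals.
Dct: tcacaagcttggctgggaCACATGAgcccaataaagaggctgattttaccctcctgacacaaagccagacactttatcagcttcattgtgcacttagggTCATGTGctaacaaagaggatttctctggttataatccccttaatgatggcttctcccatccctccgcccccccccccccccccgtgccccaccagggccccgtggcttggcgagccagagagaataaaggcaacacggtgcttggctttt
Tyrp1: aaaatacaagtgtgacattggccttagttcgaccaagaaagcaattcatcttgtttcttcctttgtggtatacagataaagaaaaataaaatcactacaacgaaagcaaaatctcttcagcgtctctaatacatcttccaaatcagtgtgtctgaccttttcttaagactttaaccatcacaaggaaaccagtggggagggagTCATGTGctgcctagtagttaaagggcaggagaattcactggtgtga
Tyr: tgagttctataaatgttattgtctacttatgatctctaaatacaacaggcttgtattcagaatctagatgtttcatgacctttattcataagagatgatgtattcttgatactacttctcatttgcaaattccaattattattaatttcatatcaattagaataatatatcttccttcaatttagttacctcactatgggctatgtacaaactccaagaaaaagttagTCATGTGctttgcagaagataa
In Dct the motif began 151 bases before the start site, and a copy on the other strand lay at 232 bases. In Tyrp1 it began 47 bases and in Tyr 22 bases before the start site. The 3 windows of Mitf, the 2 of Kit and the 1 of Ednrb did not hold these letters, which says nothing of the factor. The shorter core CATGTG, which lies inside the motif, occurred in 12.2% of all windows.

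The enzymes Dct and Tyrp1 were read far above the reference pool in nearly every culture. In bulk RNA, fewer cells of a type and less RNA per cell cannot be told apart, so these values are no count of cells. Dct, which converts dopachrome on the way to melanin, lay above the reference on both probes in 62 of 62 samples. Probe A ran from 0.95 over a median of 4.35 to 7.16, and probe B from 0.97 over 3.58 to 7.49. Tyrp1, the related enzyme of the same path, ran from 0.33 over 5.63 to 8.87 on probe A, above the reference in 62 of 62 samples. Its probes C (0.17, 3.58 and 6.75 as lowest, median and highest) and B (-0.13, 3.36 and 6.97) were above it in 62 and 61 of 62. In rank, only 11 probes of the array had a higher median ratio than Tyrp1 A and 63 a higher one than Dct A. These ranks order ratios to the pool and depend on the pool's own level of each gene.

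Tyr and Mlana were also above the reference in most samples, by less. Tyr, tyrosinase, the rate-limiting enzyme of melanin synthesis, ran from -0.46 over a median of 0.51 to 3.02 and was above 0 in 53 of the 60 samples with a value. Mlana ran from -0.45 over 1.15 to 5.28, above 0 in 56 of 62.

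Of the transcription factors and receptors, a pair of Mitf probes lay above the pool, and the others lay near or below it. Mitf probes B (-0.35, 0.91 and 2.13) and A (-0.71, 0.95 and 3.15) were above 0 in 59 of 62 and 53 of 61 samples, and probe C in 26 of 62. Sox10 ran from -1.08 over 0.27 to 1.99 and was above 0 in 42 of 62. Kit, at -2.46, -0.61 and 0.63, was above 0 in 10 of 62 samples. The Ednrb probes disagreed, with probe A (-2.19, -0.51 and 1.17) above 0 in 12 of 62 and probe B in 41 of 61. The group means of 9 of the 14 probes were above the reference in all 13 groups, and the other probes crossed it or stayed below it.

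**Figure D1:**
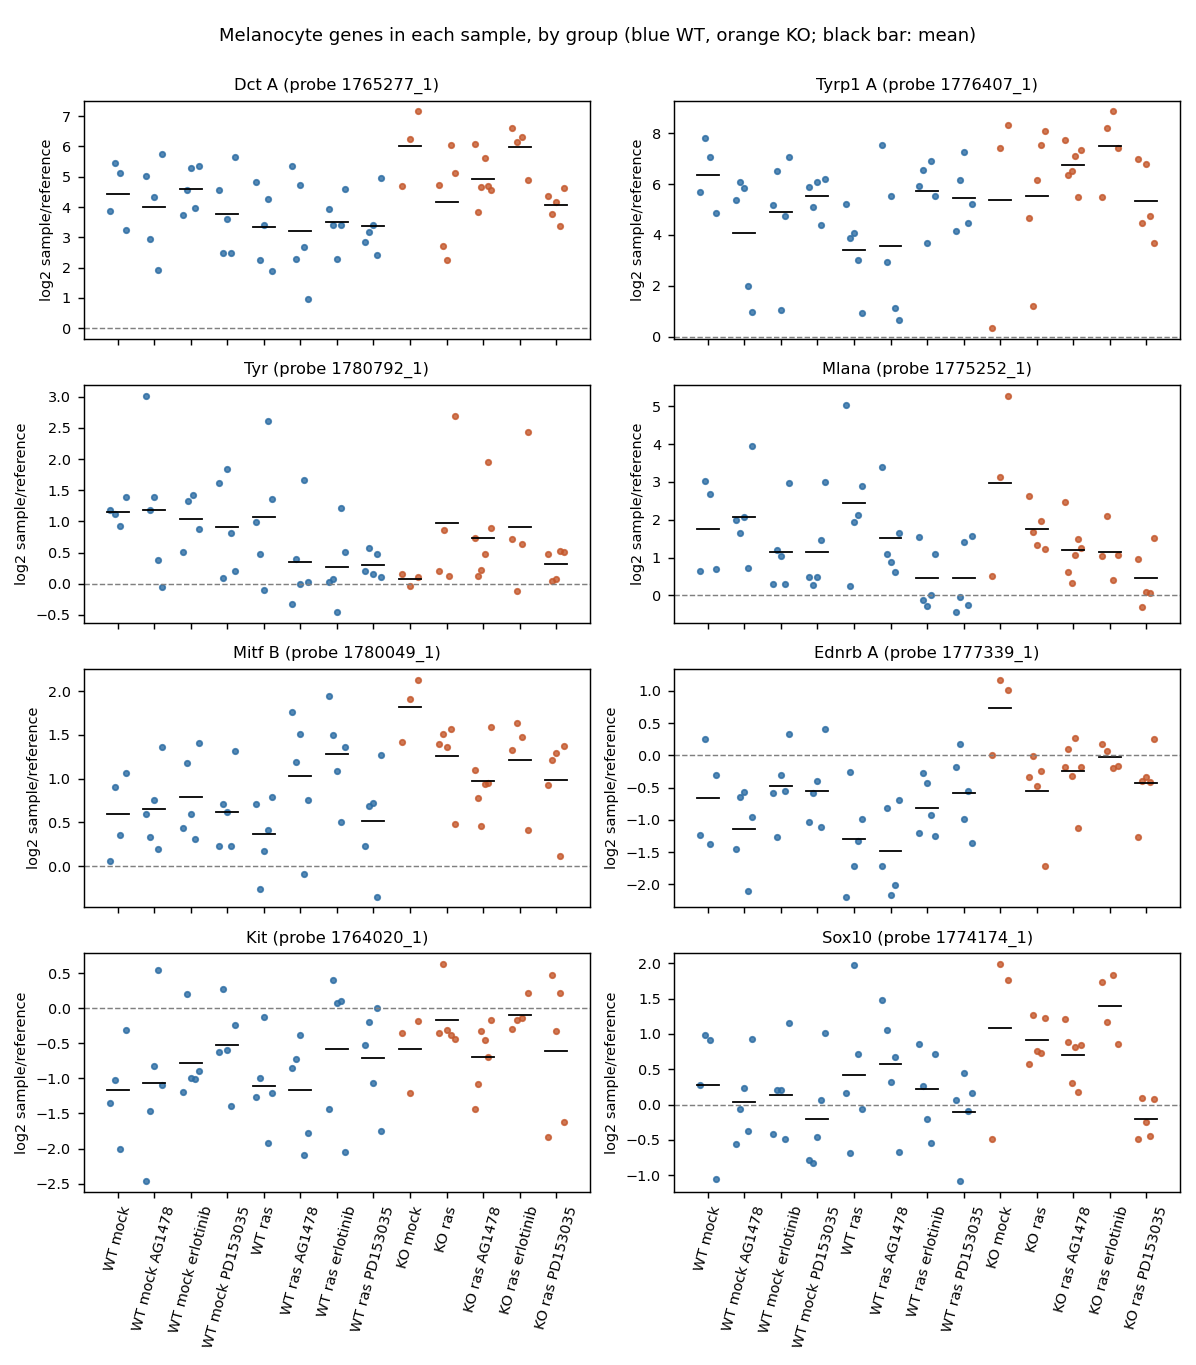
The log2 ratio of sample over reference for 1 probe of each melanocyte gene; each point is a sample, black bars are group means, blue is WT and orange KO, the dashed line marks the reference, and each panel has its own vertical scale. Dct and Tyrp1 lie above the reference in all 62 samples, Kit mostly below it, and within most groups the samples spread widely.

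Other cell types were read in the same arrays through marker lists, 1 probe per gene. Of 29 further genes of the melanocyte lineage, 22 had a median over samples above the reference. The list median was 0.53, and 5 genes were over 2. Among the higher ones were Pmel, the fibril protein of melanosomes (median 2.60), Rab38, which carries cargo to melanosomes (3.52), and the exchanger Slc24a5 (1.71). Ptgds (-4.06) and Rab27a (-1.31) were below the reference. Many probes of the array lie above it: Slc45a2, at 0.01, stood at percentile 51.6 of all probes by median ratio. All 19 keratinocyte markers were above it, with a list median of 3.73. Above the reference were 3 of 9 Schwann cell and glia markers, 1 of 8 mast cell markers, 2 of 15 fibroblast markers, 0 of 10 endothelial markers and 1 of 12 leukocyte and Langerhans cell markers. The low lists are set by the pool too, which holds cell lines of other types, so a low ratio is no proof that a cell type was missing.

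**Figure D2:**
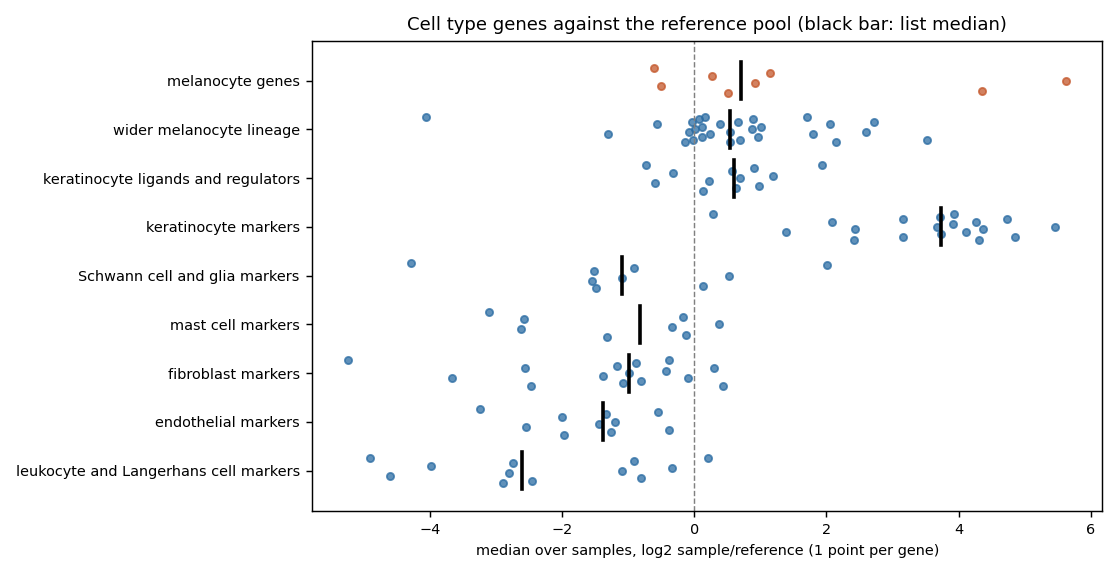
Each point is the median over the 62 samples of 1 gene's log2 ratio to the reference pool, by marker list, with the list's median as a black bar. The 19 keratinocyte markers lie above 0, as do 22 of 29 further melanocyte lineage genes (list median 0.53), while all 10 endothelial markers lie below it.

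Samples of 1 group differed widely. Dct A had its highest group mean in KO mock (6.03 ± 1.25, SD, n = 3) and its lowest in WT ras with AG1478 (3.20 ± 1.82, SD, n = 5). When its 13 group means were put in order, only 1 of the 12 steps between neighbours exceeded the larger of the neighbours' SDs, the step from KO ras with erlotinib (5.98 ± 0.76, SD, n = 4) down to KO ras with AG1478 (4.91 ± 0.80, SD, n = 6). For Tyrp1, Tyr, Mlana, Kit, Sox10 and Dct B, 0 of the 12 steps did so. The KO mock values of Tyrp1 A show the spread: they were 7.44, 0.33 and 8.33. The lowest, repeat 2, was also the lowest of the 3 for Mlana (0.52) and Sox10 (-0.49), and its array had the smallest SD of all (0.75).

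An F test over the 13 groups (limma, Benjamini-Hochberg over all probes tested) passed for 4 of the 14 probes, against 25.2% of all probes tested. They were both Dct probes (adjusted p = 0.0256 for probe A and 0.026 for probe B), Mitf B (0.00801) and Ednrb A (0.00357). The share of probes called is near the background. With the array run (experiment numbers close together) as a random block, limma called 0 of the 14, against 4 without that block. The share of all probes called with the block is not given here, so this count has no background beside it. Without the block, 6 of the 14 had an unadjusted p under 0.05.

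Whether the genotype matters was asked first without virus. In mock cultures Dct A read 6.24, 4.69 and 7.16 in the 3 KO samples and 3.88, 5.44, 5.12 and 3.24 in the 4 WT samples. The groups overlapped, and the difference was 1.53 ± 0.85 (SE). Mitf B read 1.91, 1.42 and 2.13 in KO and 0.06, 0.90, 0.36 and 1.06 in WT. Every KO sample was above every WT sample on this probe, with a difference of 1.13 ± 0.32 (SE, adjusted p = 0.057, limma). Mitf A went the other way, with means of 0.45 ± 0.10 in KO (SD, n = 3) and 1.56 ± 0.70 in WT (SD, n = 4). Its KO mock mean was the lowest of the 13 groups. Tyr was also lower in KO, with -0.04, 0.15 and 0.10 in KO and 1.19, 1.12, 0.92 and 1.40 in WT. Its groups did not overlap (difference -0.99 ± 0.52, SE, unadjusted p = 0.0644 in limma).

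No probe of these genes passed the threshold in mock cultures: limma called 0 of 14, against 1.11% of all probes, and 3 had an unadjusted p under 0.05. Of the 14 differences 8 were positive, those of Dct, Mlana, Sox10 and Kit among them, and those of all 3 Tyrp1 probes were negative, the furthest from 0 being Tyrp1 B at -3.06 ± 1.23 (SE, adjusted p = 0.176). Without repeat 2 of KO mock the count called was 2, and the share of all probes called in that fit is not given here. KO and WT mock arrays share no run, so run and genotype cannot be told apart here.

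In ras cultures without inhibitor, Dct B read 3.32, 4.26, 4.31, 4.35 and 6.43 in KO and 1.22, 3.66, 1.51, 1.74 and 4.42 in WT. All but 2 of the WT samples were below every KO sample, and the difference was 2.03 ± 0.77 (SE, adjusted p = 0.156, limma). Mitf B read 1.40, 1.51, 1.36, 0.48 and 1.57 in KO and -0.26, 0.17, 0.79, 0.41 and 0.71 in WT. The groups overlapped through 1 KO sample, and the difference was 0.90 ± 0.26 (SE, adjusted p = 0.0574, limma). The group means were 0.81 in KO and 0.56 in WT on Mitf A, and -0.08 and 0.22 on Mitf C. Limma called 0 of 14 probes, against 1.92% of all probes, with 4 at an unadjusted p under 0.05 and 11 of 14 differences positive. Leaving out either repeat 4 of WT ras or repeat 4 of KO ras, the latter being the low Mitf sample, brought the count called to 1. These groups share no run either.

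The genotypes were compared under the inhibitors in ras cultures, where KO and WT arrays do share runs. Averaged over the 3 inhibitors, all 14 probes were higher in KO, and 3 passed the threshold in limma, against 6.48% of all probes tested. The genes and this mean were chosen with earlier results of these data known, so these p-values are not those of a comparison fixed beforehand. The member probes' median difference was 0.42, where that of all probes was -0.04. The probes that passed were both Dct probes and Ednrb A, while the positive differences of the other 11 did not pass.

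Dct A ran from 3.39 over a median of 4.67 to 6.61 in the 15 KO samples and from 0.95 over 3.40 to 5.36 in the 15 WT samples. The ranges overlapped, and 14 of 15 KO samples lay above the WT median. The fitted difference was 1.63 ± 0.41 (SE, 95% interval 0.82 to 2.45, adjusted p = 0.0075), or 3.10-fold if the deposited logs are base 2. Dct B ran over 1.23, 4.86 and 6.08 in KO and 0.97, 2.94 and 5.31 in WT. Again 14 of 15 KO samples were above the WT median, with a difference of 1.81 ± 0.45 (SE, adjusted p = 0.0075), or 3.50-fold. Turning the pair of AG1478 arrays back to their dye labels ended both calls (0.49, adjusted p = 0.847, and 0.69, adjusted p = 0.746), and leaving those arrays out kept both (1.55, adjusted p = 0.0204, and 1.68, adjusted p = 0.0227).

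Ednrb A ran from -1.26 over -0.18 to 0.27 in KO and from -2.17 over -0.92 to 0.17 in WT. Of the KO samples 13 of 15 lay above the WT median, and the difference was 0.73 ± 0.21 (SE, adjusted p = 0.0215). With run as a fixed term the difference was 0.64 and its adjusted p 0.0525, and on the arrays labelled forward alone the adjusted p was 0.102. The other Ednrb probe, B, gave 0.40 ± 0.22 (SE, adjusted p = 0.319).

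The remaining pigment genes had wider errors. Tyrp1 A ran over 3.67, 6.81 and 8.87 in KO and 0.66, 5.54 and 7.56 in WT, and 10 of 15 KO samples lay above the WT median. Its difference of 1.62 ± 0.70 (SE) was as large as that of Dct and had an adjusted p of 0.165. Tyrp1 B gave 1.39 ± 0.59 (adjusted p = 0.156) and probe C gave 1.08 ± 0.54 (adjusted p = 0.252). The difference was 0.34 ± 0.25 for Tyr, 0.13 ± 0.39 for Mlana, 0.41 ± 0.25 for Sox10 and 0.35 ± 0.27 for Kit (SE). The intervals of Mlana (-0.65 to 0.91) and Kit (-0.19 to 0.89) include both 0 and differences of the size seen for Ednrb.

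**Figure D3:**
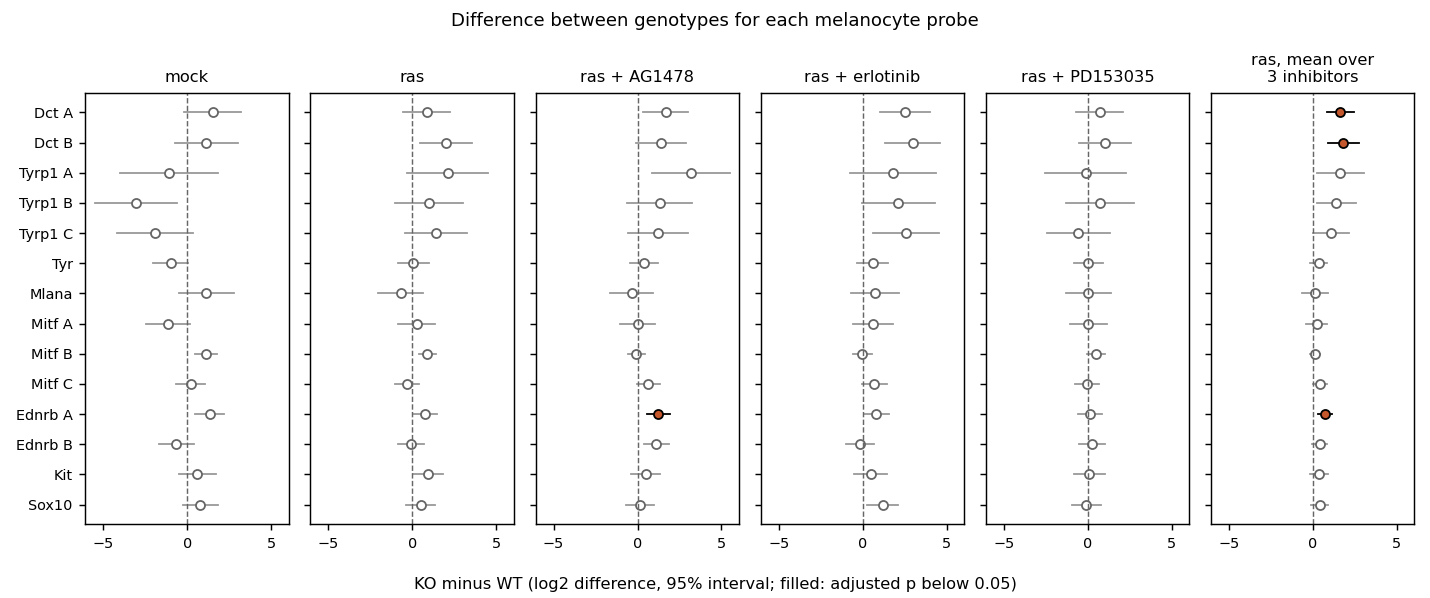
KO minus WT log2 difference with its 95% interval for each of the 14 probes, in mock, in ras and in ras with each inhibitor, and averaged over the 3 inhibitors; filled points have an adjusted p below 0.05. In the averaged panel all 14 points lie right of 0 and 3 are filled, at 1.63 and 1.81 for Dct and 0.73 for Ednrb.

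By inhibitor, erlotinib gave the widest gap for Dct. Dct A read 6.61, 6.14, 6.31 and 4.88 in KO ras with erlotinib and 2.27, 3.92, 3.42, 3.40 and 4.58 in WT ras with erlotinib. On probe B the values were 5.85, 5.38, 5.86 and 4.46 against 0.96, 3.37, 2.15, 2.13 and 3.66. The groups did not overlap on either probe, nor for Ednrb A and Sox10, although the lowest KO and the highest WT sample of Sox10 both read 0.86. The share of all probes without overlap is not given here. The lack of overlap therefore has no background beside it and is not read as a trait of these genes.

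The Dct differences with erlotinib were 2.50 ± 0.74 and 2.98 ± 0.82 (SE), with adjusted p of 0.076 and 0.0552. Limma called 0 of 14 probes, against 0.945% of all probes, and 5 had an unadjusted p under 0.05, among them Sox10 (1.20 ± 0.46, SE, adjusted p = 0.176) and Tyrp1 C (2.60 ± 0.98, SE, adjusted p = 0.173). Sox10 read 1.74, 1.17, 1.83 and 0.86 in KO and -0.21, 0.86, 0.26, -0.55 and 0.71 in WT. Within run, Dct A differed by 3.15 between 3 KO and 3 WT samples of run 5 and by 0.88 between 1 KO and 2 WT samples of run 6. With run as a random or as a fixed block 2 probes were called, and without repeat 2 of WT ras with erlotinib 1 was. The shares of all probes called in those fits are not given here.

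With AG1478, Dct A read 3.83, 4.69 and 6.07 as lowest, median and highest of 6 KO samples, and 2.28, 4.74, 0.95, 2.67 and 5.36 in WT. The groups overlapped, with 2 of the 5 WT samples inside the KO range, and the difference was 1.69 ± 0.67 (SE, adjusted p = 0.184). Tyrp1 A ran over 5.50, 6.83 and 7.76 in KO against 2.95, 5.55, 0.66, 1.11 and 7.56 in WT, where 3 WT samples were below every KO sample (3.18 ± 1.15, SE, adjusted p = 0.136). In this comparison 1 of 14 probes passed, against 2.22% of all probes: Ednrb A rose by 1.22 ± 0.34 (SE, adjusted p = 0.0393) in KO. This call was lost in 8 of the 11 fits that left out a sample in turn, when any of repeats 2, 4 and 5 of WT ras with AG1478 or repeats 1, 2, 4, 5 and 6 of KO ras with AG1478 was missing (highest adjusted p 0.146). With run as a fixed term its difference was 0.73 (adjusted p = 0.437). Only run 8 holds both genotypes, with 6 KO and 2 WT samples, and within it Ednrb A differed by 1.11 and Dct A by 3.10.

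With PD153035, Dct A read 4.38, 3.78, 4.18, 3.39 and 4.63 in KO and 2.83, 3.18, 3.41, 2.42 and 4.97 in WT. The highest value was a WT sample, and the difference was 0.71 ± 0.70 (SE, adjusted p = 0.873). Limma called 0 of 14 probes with PD153035, against 1.38% of all probes, and 0 had an unadjusted p under 0.05. All 10 arrays of this comparison are of 1 run. Whether the genotype difference itself varied between the inhibitors was not tested.

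With erlotinib, where the Dct gap was widest, array spread and keratinocyte markers were also higher in KO. The mean array SD was 1.53 in KO ras with erlotinib and 1.30 in WT ras with erlotinib, 1.25 and 1.30 with AG1478, and 1.22 in both with PD153035. The median of the 19 keratinocyte markers was taken in each sample. With erlotinib its mean over samples was 4.05 ± 0.24 in KO (SD, n = 4) and 2.96 ± 0.48 in WT (n = 5). In the same order it was 3.83 ± 0.72 and 3.73 ± 0.75 with AG1478, and 3.30 ± 1.01 and 2.72 ± 1.18 with PD153035. Averaged over inhibitors, 18 of 19 keratinocyte markers had a positive KO minus WT difference, median 0.29, and 3 passed: Trp63, Dsp and Itga6. Their part in the Dct difference with erlotinib was not tested.

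Of the 29 further lineage genes, 23 had a positive KO minus WT difference averaged over the inhibitors, median 0.26, where 45.4% of all probes were positive. The 2 that passed are a share near the 6.48% of all probes called, so they say little of the list. Snai2, a transcription factor of melanoblasts that epithelial cells also make, rose by 1.17 (adjusted p = 0.028), and Syt4, a vesicle protein, by 0.67 (adjusted p = 0.0283). Against those 45.4%, positive differences numbered 2 of 15 for fibroblast, 2 of 9 for Schwann cell and glia, 1 of 10 for endothelial, 3 of 12 for leukocyte and 2 of 7 for mast cell markers. Between mock cultures 53.3% of all probes were positive. There the counts were 12 of 15 for fibroblast, 4 of 9 for Schwann cell and glia and 9 of 10 for endothelial markers. They were 9 of 12 for leukocyte markers, 5 of 6 for mast cell markers and 17 of 29 for the lineage list. The mean array SD was 1.17 in KO mock and 1.40 in WT mock, and its part in these signs was not tested. Averaged over the inhibitors, Thy1, a fibroblast marker, fell by 0.98 (adjusted p = 0.0164, limma). Mal, a myelin protein of the Schwann cell list, fell by 2.20 (adjusted p = 0.00212). Among 12 signals that act on melanocytes, Hgf fell by 1.32 in KO (adjusted p = 0.00049) and the other 11 did not pass, again near the 6.48% of all probes. Kitl, the ligand of Kit, rose by 1.88 ± 0.47 in KO with erlotinib (SE, adjusted p = 0.0344, limma), the 1 of the 12 called there, against 0.945% of all probes. Its values ran from -0.88 to 3.01 in KO (n = 4) and from -1.27 to -0.63 in WT (n = 5), so the groups overlapped.

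The oncogene had no call among these genes. In WT, Tyrp1 A read 5.71, 7.84, 7.08 and 4.87 in mock and 3.88, 4.06, 0.93, 3.00 and 5.23 in ras. All but 1 of the ras samples were below every mock sample, and the difference was -2.91 ± 1.28 (SE, adjusted p = 0.674, limma). In KO, Ednrb A read 1.17, 0.01 and 1.01 in mock and -0.33, -0.01, -0.47, -1.71 and -0.25 in ras. Every ras sample was below every mock sample, by -1.18 ± 0.41 (SE, adjusted p = 0.307). KO mock and KO ras arrays share no run, so run and ras cannot be told apart in KO.

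Limma called 0 of 14 probes for ras in WT, against 0.183% of all probes, with 1 at an unadjusted p under 0.05. It called 0 of 14 for ras in KO, against 0.539%, with 2 at an unadjusted p under 0.05. The difference of the ras effect between genotypes was 4.04 ± 1.59 and 3.36 ± 1.46 (SE) for Tyrp1 B and C. It passed for 0 of 14 probes (adjusted p of 0.752 and 0.795), against 0.0108% of all probes, with 2 at an unadjusted p under 0.05. This difference also rests on the KO mock and KO ras arrays, which share no run.

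Of the inhibitor effects, 1 probe passed. In WT ras cultures Mitf B was higher with erlotinib. It read 1.09, 1.95, 1.50, 0.50 and 1.36 with erlotinib and -0.26, 0.17, 0.79, 0.41 and 0.71 without. The lowest erlotinib sample lay among the untreated ones, and the difference was 0.92 ± 0.26 (SE, adjusted p = 0.0393, limma), 1 call of 14 against 3.4% of all probes. The arrays with and without erlotinib share no run, so run and inhibitor cannot be told apart here, and with run as a random block the adjusted p was 0.266. The call was lost in 6 of 10 fits that left out a sample in turn, when any of repeats 1, 2 and 5 of WT ras or repeats 1, 2 and 3 of WT ras with erlotinib was missing. The other Mitf probes gave differences that did not pass, and probe C was negative (-0.77 ± 0.36, SE, adjusted p = 0.231). Mlana was lower with both erlotinib (-1.99 ± 0.67, SE, adjusted p = 0.0806) and PD153035 (-2.00 ± 0.67, SE, adjusted p = 0.157) than in untreated WT ras. Those comparisons share the same WT ras samples, and the arrays of neither inhibitor share a run with them.

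Elsewhere limma called 0 of 14 probes. For AG1478 and PD153035 in WT ras the background was 1.94% and 0.66% of all probes, and 2 probes each had an unadjusted p under 0.05. For AG1478, erlotinib and PD153035 in KO ras it was 0.225%, 0.0543% and 4.83%, with 0, 1 and 1 such probes. Without repeat 1 of WT ras, 1 probe was called for PD153035 in WT ras. In WT mock 0% of all probes passed for any of the 3 inhibitors, and 1, 0 and 0 of the 14 had an unadjusted p under 0.05. The nearest of these to the threshold was Sox10 with PD153035 in KO ras, which read -0.49, 0.09, -0.24, -0.44 and 0.08 against 0.57, 1.27, 0.76, 1.22 and 0.73 without inhibitor. The groups did not overlap, and the difference was -1.11 ± 0.43 (SE, adjusted p = 0.11). In neither genotype do ras arrays with AG1478 or PD153035 share a run with ras arrays without inhibitor. Run and inhibitor cannot be told apart in those comparisons.

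The genes were also compared sample by sample, as deviations from the group mean over 62 samples (60 for Tyr). Of the 28 pairs of genes, each by 1 probe, 11 passed at an adjusted permutation p under 0.05, 9 with a positive and 2 with a negative correlation. Dct and Mlana had Pearson's r = 0.608 and Spearman's rho = 0.616, Mlana and Mitf r = 0.603 and rho = 0.549, and Mlana and Sox10 r = 0.554 and rho = 0.517. Each of the 3 had a permutation p of 1e-05 for r, the smallest that 100000 permutations can give, and an adjusted p of 7e-05. Without the 2 samples farthest from the median on the first gene, r was 0.615, 0.613 and 0.599. Within group and run it was 0.705, 0.667 and 0.647 (56 samples).

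Dct and Tyrp1 had r = 0.476 and rho = 0.460 (permutation p = 7e-05 and 0.00023, adjusted 0.000392 and 0.00129), r = 0.396 without the 2 farthest samples and 0.348 within group and run. Ednrb paired with none of the other genes past the threshold, while the 2 negative pairs were Kit with Tyr (r = -0.387, rho = -0.308, adjusted permutation p = 0.00878 and 0.0437) and Kit with Mlana (r = -0.311, rho = -0.370, adjusted permutation p = 0.0403 and 0.0122). Within group and run these were -0.156 and -0.398.

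Arrays with a wide spread of all values moved many of these genes together. The deviations of Dct A, Tyrp1 A and Mlana correlated with those of the array's SD at 0.74, 0.67 and 0.63, a description over 62 samples. With the median of the keratinocyte markers, Dct A, Dct B, Mlana, Sox10 and Mitf B correlated at 0.55, 0.65, 0.68, 0.62 and 0.56. With each array scaled to 1 spread these were 0.42, 0.35, 0.44, 0.32 and 0.39. The other probes ranged from -0.35 (Ednrb B) to 0.44 (Tyrp1 B) before scaling. What lies behind these correlations was not tested. When each array was scaled to 1 spread, 2 of the 28 pairs passed: Mlana with Sox10 (r = 0.538, adjusted permutation p = 0.00028) and Mlana with Mitf (r = 0.408, adjusted permutation p = 0.0123). Dct with Mlana fell to 0.285 and Dct with Tyrp1 to 0.023. What was kept on scaled arrays differed between probes. With Tyrp1 A, Dct B went from 0.51 to 0.16. With Tyrp1 B, Dct A went from 0.67 to 0.45 and Dct B from 0.70 to 0.66. With Mlana, Dct B went from 0.72 to 0.62. Scaling did not remove the tie to array spread for every probe. On scaled arrays the correlation with the array's SD was 0.49 for Mlana, 0.44 for Sox10, 0.44 for Tyrp1 B and 0.42 for Dct B. It was 0.13 for Dct A and 0.03 for Mitf B. The part of array spread in the pairs that were kept was not tested.

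Probes of 1 gene did not always move together. The Dct probes correlated at 0.73 (0.48 on scaled arrays). The Tyrp1 probes did so at 0.40 (A with B), 0.44 (A with C) and 0.66 (B with C). On scaled arrays these were 0.11, 0.27 and 0.52. The Mitf probes correlated at 0.32, 0.19 and -0.24, and the Ednrb probes at 0.13. A result on Tyrp1, Mitf or Ednrb from 1 probe therefore speaks for that probe.

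**Figure D4:**
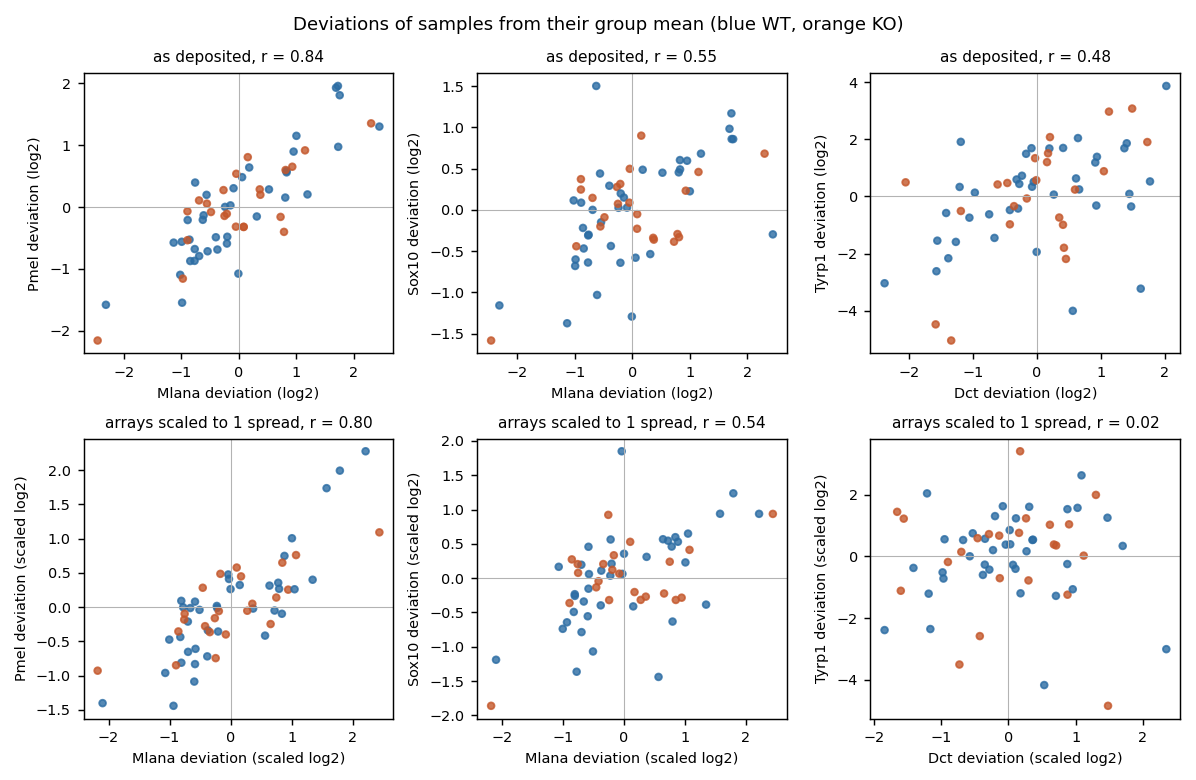
Deviations of each sample from its group mean for Mlana against Pmel, Mlana against Sox10 and Dct against Tyrp1, as deposited (top) and after each array was scaled to 1 spread (bottom); each point is a sample, blue WT and orange KO. Mlana follows Pmel in both panels (r of 0.84 and 0.80), while the relation of Dct with Tyrp1 goes from 0.48 to 0.02.

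Among all named genes with a value in every sample, the nearest to Mlana by the correlation of deviations was Pmel (r = 0.84, and 0.80 on scaled arrays), followed by Rassf10 and Adam8. Nearest to Dct were Tmem43 (0.80), Calm4 (0.79) and Slc24a5 (0.76, and 0.46 on scaled arrays). Nearest to Tyrp1, by its probe A, were Dsg1a (0.87), a cadherin of desmosomes, Lypd3 (0.83) and Serpinb5 (0.83), all of which are known from keratinocytes. On scaled arrays these were 0.82, 0.75 and 0.74. Mitf had Klk8 (0.70), Pmel (0.68) and Rassf10 (0.68), and Sox10 had Tmem154 (0.77), Rab29 (0.77) and Fam111a (0.75). Tyr had Sfswap (0.66), Zbtb43 and Hpgds, Ednrb had Cntn1 (0.62), Dipk2a and Ttn, and Kit had Ccdc92 (0.78), Lpin2 and Nf2. Among the genes so named, Pmel, which stood near both Mlana and Mitf, and Slc24a5 are on the lineage list.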

How the data were processed

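Two-colour arrays of 62 samples were read from the deposited series matrix. The authors deposited log ratios per probe, taken here as log2. Their log base, dye order and background correction are not given in the sources, and signs come from each array's correlation with the arrays labelled forward. The 2 WT mock arrays labelled repeat 1 were averaged. Symbols came from the platform annotation (20925 probes with 1 symbol, 159 with several, 6965 with none); several probes of a gene were kept apart, and 1 with the most values stands for the gene in lists and pairs. limma 3.58.1 (R 4.3.3) fitted 13 groups and a dye term over probes with values in at least 60% of each group compared, with Benjamini-Hochberg adjustment over all of them at 0.05; the script was tested on simulated data. Members, marker lists, the mean over 3 inhibitors and the array weights were chosen with earlier results of these data known. Genes named are the members, list genes that passed a test and the 3 nearest by correlation per member. The number of arrays limits the precision. Alternatives were scaling, quantile normalization, array weights, dye, sign, blocks for run and repeat number, probe filters and leaving out each sample. Same-numbered samples did not deviate together in every pair of any comparison, so repeat numbers were not taken as pairs.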

Additional observations from a re-analysis of the deposited data

Results flagged for a closer look

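In 9 of the 168 sets of values of 1 probe in 1 group of 4 or more samples, 1 sample stood apart from the others by Dixon's 95% limit. Chance alone sets about 1 in 20 groups apart in this way, and the causes were not tested. The Dct probe B read 5.62 in repeat 5 of WT mock with PD153035, where the other 4 samples lay between 2.19 and 3.03.

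For Mitf, probe A read 2.10 in repeat 5 of WT ras with PD153035 (others -0.17 to 0.44) and -0.19 in repeat 3 of KO ras with AG1478 (others 0.87 to 1.30), an array whose sign was turned against its label. Probe B read 0.485 in repeat 4 of KO ras (others 1.36 to 1.57). Probe C read 1.99 in repeat 2 of WT ras (others -0.68 to 0.05) and 0.35 in repeat 5 of KO ras with PD153035 (others -0.36 to -0.25).

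For the receptors, Ednrb A read -1.71 in repeat 4 of KO ras (others -0.47 to -0.01), the same sample that was low for Mitf B. Kit read 0.20 in repeat 2 of WT mock with erlotinib (others -1.19 to -0.90) and 0.63 in repeat 2 of KO ras (others -0.44 to -0.31).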

How the results depend on the processing

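Counts were recomputed under 301 combinations of result and alternative. All were counts of melanocyte probes called, except 5 for gene pairs past the threshold and 4 for probes above the reference in every group. The count stayed within 1.5 times in 254 of the 301 and moved in 47, and the causes were not tested. The range with each sample left out in turn follows each comparison. For KO minus WT in mock (0 called) the count was 1 with forward arrays alone, with repeat 1 arrays kept apart, with quantile normalization and with probes measured on every array, 2 with scaled arrays and 2 with array weights (0 to 2, the 2 without KO mock repeat 2). In ras (0) it was 1 with forward arrays, probes measured on every array or array weights and 2 with quantile normalization (0 to 1). With AG1478 (1) it was 0 without the dye term, with forward arrays, without the arrays of disputed sign, with repeat 1 arrays kept apart, with run as a random block or with only the groups compared, 3 with scaled arrays, 4 with quantile normalization and 2 with array weights (0 to 1). With erlotinib (0) it was 5 with array weights, 2 with run as a random or fixed block and 1 with probes averaged by gene (0 to 1), and with PD153035 (0) it was 1 with array weights (0 to 0). Averaged over inhibitors (3) it was 1 with signs by label and 6 with array weights (3 to 3). The F test (4) gave 2 with signs by label or genes averaged, 8 with quantile normalization, 11 with array weights and 0 with run as a random block (3 to 7, the 7 without KO mock repeat 2). Erlotinib in WT ras (1) gave 0 without the dye term, with signs by label, quantile normalization, run as a random block, genes averaged or only the groups compared (0 to 1). PD153035 in WT ras (0) moved only with a sample left out (0 to 1). The ras effect in KO (0) gave 1 with scaled arrays, AG1478 in KO ras (0) gave 2 with signs by label, and erlotinib and PD153035 in KO ras (0 each) gave 2 and 3 with array weights. Array weights called 20038 of 27244 probes in the F test. For the other alternatives and for fits with a sample left out, the share of all probes called is not given in this report. Higher counts there have no background beside them and are not read as results on these genes. The pairs of genes past the threshold went from 11 to 2 on scaled arrays. With signs by label the Dct difference between genotypes with AG1478 turned to -1.78 on probe A and -2.00 on probe B.

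With the repeat number as a block, 1 probe was called for KO minus WT in mock and 1 in ras, 0 with AG1478, 2 with erlotinib, and 2 for erlotinib in WT ras. Same-numbered samples correlated over 0.1 in at most 4 of 5 pairs, so the labels' repeat numbers were not treated as pairing. With the block, the difference for Dct A with erlotinib was 2.74.

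The 3 to 6 arrays per group set the precision, and spots' own brightness was not used here.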

Other observations

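In the wider lineage list of 29 genes, Foxd3, a factor of neural crest cells, stood apart in WT mock cultures, with a mean of 2.25 ± 0.59 (SD, n = 4) against means of 0.55 to 1.13 in the other 12 groups. It was called lower in KO mock (-1.66, adjusted p = 0.00967 in limma) and in WT ras (-1.61, adjusted p = 0.00284), and both comparisons share the WT mock samples. Between mock cultures it was 1 call of 29, where 1.11% of all probes were called. For ras in WT it was also 1 call of 29, where 0.183% of all probes were called. These shares rest on 1 gene. Hps4, needed for melanosome assembly, rose by 1.07 with erlotinib in WT ras cultures, 1 call of 29 where 3.4% of all probes were called. Gpnmb, a melanosome glycoprotein also made by macrophages, fell by 2.23 with PD153035 in KO ras cultures, 1 call of 29 where 4.83% of all probes were called. The shares for Hps4 and Gpnmb are near or below the background. The F test over groups passed for 6 of the 29 further lineage genes and for 8 of 12 signals that act on melanocytes, against 25.2% of all probes.

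The Dct probes' ranges in KO ras with erlotinib (4.88 to 6.61 on probe A) and the Slc24a5 mean there (4.10 ± 0.97, SD, n = 4) lay above the WT ras with erlotinib means of 3.52 ± 0.85 and 1.62 ± 0.61 (SD, n = 5), while the Pmel means were 3.06 ± 0.29 and 1.64 ± 0.75. Slc24a5 and Pmel were named after their likeness to Dct and Mlana was seen, and these values are given without a test.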
